A study of Mus musculus with 30 samples.

Results

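The experiment asked whether the hypothalamus of mice carrying the 4-repeat form of the human PER3 tandem repeat differs in gene expression from that of wild-type mice. It was made up of 16 of the 30 arrays of the study, 8 from Per3 4/4 mice and 8 from wild-type (WT) mice, chosen by genotype and by the run that both groups shared. Each array, taken to hold labelled hypothalamic RNA of 1 mouse, had 41174 probes after control spots were removed, of which 28701 were tested. Per3 4/4 mice are homozygous for an allele in which mouse exon 18 of Per3 is exchanged for the human exon with 4 repeats, and WT mice are homozygous for the mouse gene. Both lines were bred on a C57BL/6 background from the same conditional parents, after a cross to mice that express Cre everywhere from a PGK promoter at ROSA26, and mice of both lines lacked Cre. According to the methods all were male. All were kept under cycles of 3.5 h light and 3.5 h dark, and brains were taken in the light of cycle 17. The other 14 arrays, 7 Per3 5/5 (the 5-repeat allele) and 7 WT, belonged to run 1 and are used below only where they bear on a difference in Per3 4/4. The methods give 8 mice a genotype, with 1 WT mouse excluded, while WT arrays number 7 in run 1 and 8 here. The labels number the arrays of a genotype as replicates and do not say that each is 1 mouse. They also do not say how mice of a genotype were housed or related, so each p-value measures only the spread between these arrays.

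PER3 is one of the 3 period proteins, which pair with cryptochromes and hold back the transcription factors CLOCK and BMAL1, so that clock genes are read in a daily cycle. In people, the number of repeats in PER3 has been linked to sleep timing and to the response to lost sleep. The hypothalamus holds the suprachiasmatic nucleus, the master clock of the brain, as well as neurons that govern sleep, feeding and hormone release. A block of this tissue also takes in choroid plexus, meninges, vessels and, depending on the cut, thalamus or pituitary.

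Levels are given as log2 of the spot intensity minus the 75th percentile of the array, so 0 is the level of the spot at that percentile. A difference is the mean of Per3 4/4 minus the mean of WT on this scale. Before that shift, the percentile itself was 347 to 1370 intensity units in Per3 4/4, with a median of 1060. In WT it was 491 to 1260, with a median of 878.5. Between 58.6% and 74.6% of spots were well above background in Per3 4/4, and between 60.9% and 73.7% in WT. The arrays were read in 4 scans of 4 arrays, each with 2 Per3 4/4 and 2 WT arrays. WT array 10 stood apart in tissue content. Its level of Hcrt, the orexin precursor made only by neurons of the lateral hypothalamus, was -0.78, against 5.57 to 7.18 on the other 15 arrays. Over 26 genes of hypothalamic regional identity its mean log2 level was -2.05 relative to the mean of the 16 arrays, and over 13 striatal genes it was 1.57. WT array 14 held the highest level of Prl, the pituitary hormone prolactin, at 8.14.

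Before any comparison, Per3 4/4 arrays 6 and 7 differed from the rest in sex-linked genes. Ddx3y, a helicase gene of the Y chromosome, was at -8.51 on array 6 and -8.09 on array 7, against 0.66 to 2.04 on the other 14 arrays. Eif2s3y was at -8.40 and -7.95, against -1.64 to 0.04. Kdm5d was at -8.37 and -7.59, against -2.03 to -1.67. None of these 3 probes was well above background on arrays 6 and 7, whereas each was so on all 14 others. Xist, the RNA that coats the inactive X chromosome, went the other way. Its probe A_51_P145453 was at 1.78 on array 6 and 1.51 on array 7, and no higher than -4.47 elsewhere. A second probe of Xist, A_52_P362360, was at 0.28 and -0.01, and no higher than -5.74 elsewhere. Tsix, which is read from the opposite strand of Xist, was at -1.56 and -0.81, against -7.59 to -4.46. The Y-linked and Xist levels of these 2 arrays therefore go against the sex that the methods state, and the main differences below are given with and without them.

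**Figure D1:**
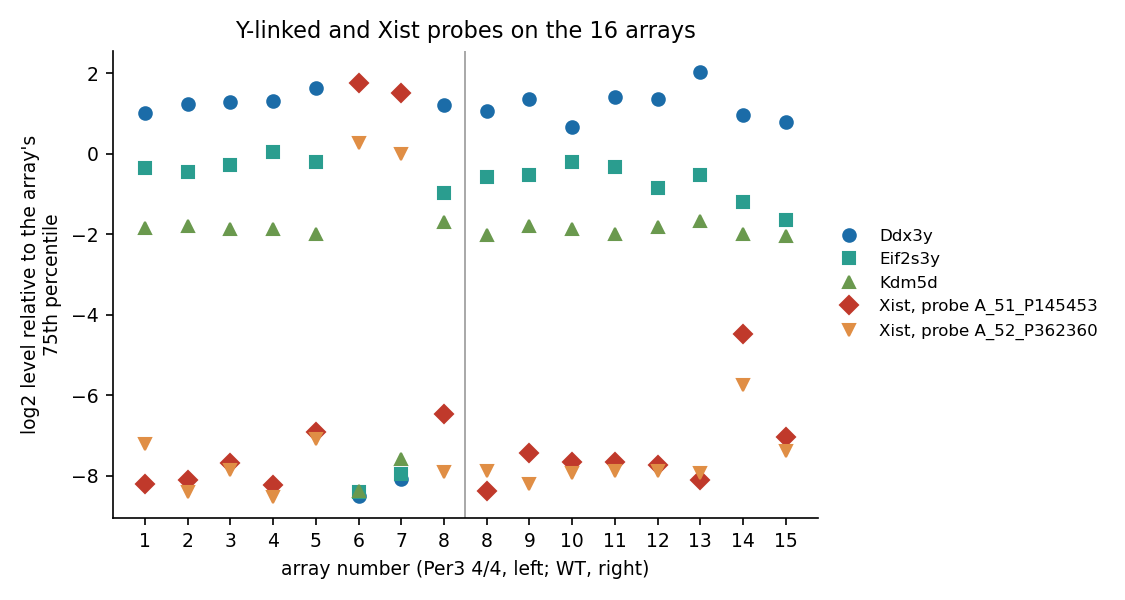
Level of 3 Y-linked genes and 2 Xist probes on each array (y axis, log2 intensity relative to the 75th percentile of the array; x axis, array number, with Per3 4/4 on the left of the line and WT on the right; 1 point per probe and array). On Per3 4/4 arrays 6 and 7 the Y-linked probes lie between -8.51 and -7.59 and the Xist probes between -0.01 and 1.78, and on the other 14 arrays the order is reversed.

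Both arrays lay above the other 14 at 85 probes (0.296% of those tested), 11 of them on X, and below them at 44 probes (0.153%), 5 of them on Y and 2 on X. Kiss1, the precursor of kisspeptin, which drives reproductive hormone release and is known to differ between the sexes in the hypothalamus, was at -0.05 and 1.46, against -3.36 to -0.59 on the others. Sgk1, a kinase induced by glucocorticoids, was at 2.35 and 2.26, against 2.68 to 4.33. As these arrays were singled out for standing apart, the counts and values are descriptions without a test, and no contrast beyond the sex chromosomes is read from them.

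Across all genes, limma called 0 of 28701 probes (0%) different between Per3 4/4 and WT at an adjusted p of 0.05, and 0 (0%) without arrays 6 and 7. At an unadjusted p under 0.05 there were 213 probes (0.742%), 134 higher (0.467%) and 79 lower (0.275%) in Per3 4/4. Leaving out arrays 6 and 7 gave 577 probes (2.01%), 340 higher (1.18%) and 237 lower (0.826%). The t-test named in the methods also called 0 probes after Benjamini-Hochberg adjustment with and without the 2 arrays, and 280 and 681 at an unadjusted p under 0.05. Without WT array 10, limma called 0 probes, and 189 at an unadjusted p under 0.05. The SD of the log2 differences over all probes was 0.18 (jackknife SE 0.043 over arrays), and 0.23 (SE 0.063) without arrays 6 and 7. A difference beyond 1 in size was measured at 43 probes, and at 67 without the 2 arrays. The median difference was 0.01 in each case.

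**Figure D2:**
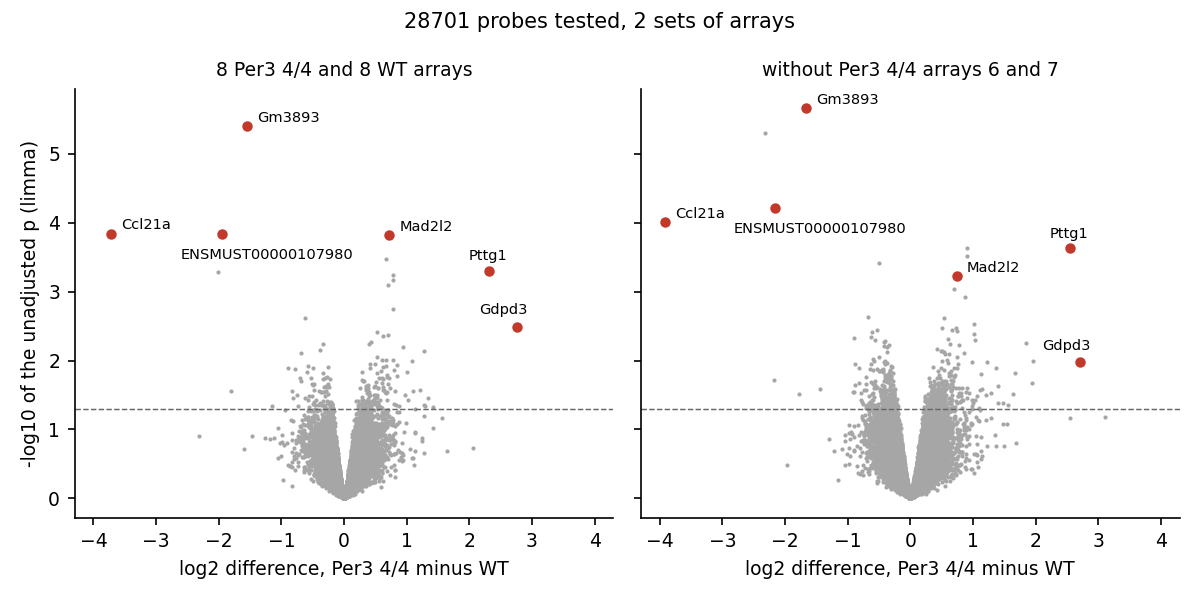
Difference of every probe tested (x axis, log2 difference of Per3 4/4 minus WT) against its unadjusted p (y axis, -log10 of the limma p), for all 16 arrays on the left and without Per3 4/4 arrays 6 and 7 on the right; each point is 1 of 28701 probes, red points are named and the dashed line marks an unadjusted p of 0.05. Gm3893 has the smallest p on both sides, with an adjusted p of 0.113 on the left and 0.0627 on the right, so no probe passed.

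Another description is the number of probes whose genotypes did not overlap, with every Per3 4/4 array above or below every WT array. This number was not set against what chance ordering would give, which rises as arrays are left out. The counts with and without arrays 6 and 7 are therefore not comparable. There were 3 such probes over all 16 arrays (0.0105%), namely Mad2l2, which was higher in Per3 4/4 (0.00348%), and Ccl21a and Gm3893, which were lower (0.00697%). Without arrays 6 and 7 there were 12 (0.0418%), 4 higher (0.0139%) and 8 lower (0.0279%). The higher ones included Mad2l2, 2510039O18Rik and 1 probe of Cyp51. The lower ones were Ccl21a, Gm3893, Capn11, Mt3, Abi3, 2310014H01Rik, Esam and Mrps11.

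Mad2l2, a subunit of a DNA polymerase that copies past damaged bases and of a complex that protects broken DNA ends, lay between 2.52 and 2.98 (median 2.60) in Per3 4/4 and between 1.40 and 2.30 (median 2.04) in WT. All 8 Per3 4/4 arrays were above all 8 WT arrays, and in WT, arrays 8, 9, 11 and 14 were between 2.21 and 2.30 and the other 4 between 1.40 and 1.87. The difference was 0.72 (SE 0.149, adjusted p = 1.00), and 0.74 (SE 0.170, adjusted p = 0.998) without arrays 6 and 7. Within the 4 scans it was 0.30, 0.72, 1.03 and 0.83. As the genotypes did not overlap at this probe, the sign in each scan was fixed in advance and adds no evidence. When all 30 arrays shared 1 estimate of the spread, the probe passed the threshold (adjusted p = 0.0115), and its difference in Per3 5/5 against the WT arrays of run 1 was -0.01 (SE 0.12). Its levels on the run 1 arrays, between 1.58 and 1.91, were closer together than in WT here. The shared estimate is therefore lower than the spread of this run alone gives. The adjusted p ranged from 0.0115 to 1.00 over the 14 alternatives.

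Mad2l2 did not stand alone on its chromosome. Its probe ends 92 bases from a probe of Fbxo6, read from the opposite strand, and the 2 transcripts run towards each other, so their 3′ ends meet. Fbxo6, a subunit of ubiquitin ligases that recognises sugar-bearing proteins, lay between 3.33 and 4.33 (median 3.99) in Per3 4/4 and between 2.31 and 3.75 (median 3.20) in WT at this probe. Arrays 3 and 7 of Per3 4/4, at 3.75 and 3.33, were inside the WT range. The difference was 0.78 (SE 0.187, adjusted p = 1.00), and 0.90 (SE 0.193, adjusted p = 0.998) without arrays 6 and 7. A second probe of Fbxo6 gave 0.69 (SE 0.171), and 0.67 (SE 0.193) without the 2 arrays. The probes of the meeting ends are shown because each holds a polyadenylation signal, AATAAA, in capitals, which was found on the probe strand in 1967 of the 41174 probes (4.78%). Positions are in mm9, the build of the array annotation, on chromosome 4.
Mad2l2, chr4:147519744-147519803, plus strand, bases 11 to 40 of 60: tgcgttattgttAATAAAgtggccccaagg
Fbxo6, chr4:147519896-147519954, minus strand, bases 26 to 55 of 60: acattttgttgtAATAAAtgttttcagtaa

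These genes lay in a group of 26 tested probes along 250 kb, chr4:147290037-147540357, from Plod1 to Fbxo2, whose bounds were set after their values were seen. Of the 26 probes, 17 were higher in Per3 4/4 by more than 0.5 and 18 had an unadjusted p under 0.05, beside 347 and 213 of all 28701 probes. The median difference of the group was 0.62, and 0.48 without arrays 6 and 7, when 10 had an unadjusted p under 0.05. In the 500 kb before it, 18 probes had a median of 0.01, and in the 500 kb after it, 15 probes also had a median of 0.01. None of the probes on either side had an unadjusted p under 0.05 or a difference beyond 0.5. As the bounds were set on these values, this contrast follows in part from where they were drawn. The group ends 2.84 Mb short of the Per3 probe on the same chromosome. Chromosome 4 as a whole held 34 of the 213 probes (1.99% of its 1712 probes, against 0.742% overall), and 18 of these 34 were in the group. Without arrays 6 and 7 it held 51 of the 577 (2.98%, against 2.01%), 10 of them in the group.

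**Figure D3:**
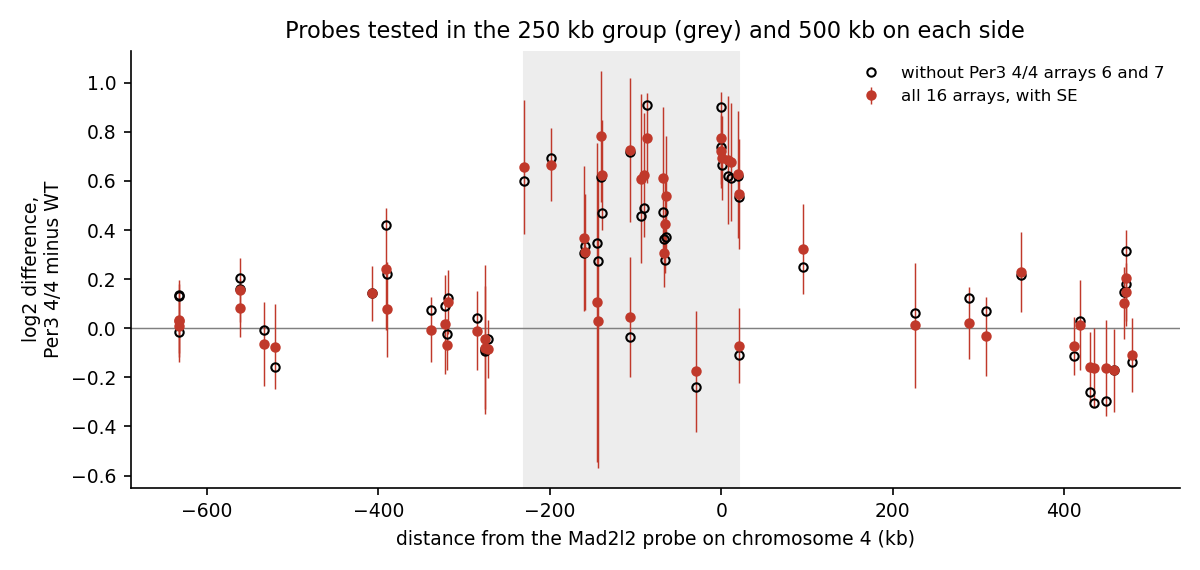
Difference between the genotypes (y axis, log2 difference of Per3 4/4 minus WT) of each tested probe by its distance from the Mad2l2 probe (x axis, kb); filled points with SE bars use all 16 arrays, open points leave out Per3 4/4 arrays 6 and 7, and the grey band is the group of 26 probes. Inside the band 17 probes lie above 0.5, and none of the 18 before it or the 15 after it does. The bounds of the band were set after these values were seen.

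The members of the group have varied roles. Plod1, an enzyme that hydroxylates lysine in collagen, was higher by 0.66 (SE 0.273), and by 0.60 without arrays 6 and 7. 2510039O18Rik lay between 3.31 and 3.60 (median 3.52) in Per3 4/4 and between 2.14 and 3.36 (median 2.85) in WT, with array 7 the lowest of Per3 4/4, a difference of 0.67 (SE 0.149), and 0.69 without arrays 6 and 7. It did not overlap between genotypes once arrays 6 and 7 were left out. Clcn6, an exchanger of chloride and protons in late endosomes, was higher by 0.62 (SE 0.223), and by 0.47 without the 2 arrays. The 4 probes of Agtrap, which binds the angiotensin receptor, were higher by 0.31 to 0.61, and by 0.28 to 0.47 without them. Both probes of Fbxo44, another ubiquitin ligase subunit, were higher by 0.69 and 0.68, and by 0.62 and 0.61 without the 2 arrays. The natriuretic peptide genes showed less, with 0.37 and 0.31 at the 2 probes of Nppb and 0.10 and 0.03 at the 2 of Nppa, or 0.31, 0.33, 0.35 and 0.27 without the 2 arrays. The lowest of the 26 was 2610109H07Rik at -0.18 (SE 0.247), and -0.24 without them.

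The 3 probes of Fbxo2, the brain member of the same F-box family, disagreed. Probe A_51_P114472 was higher in Per3 4/4 by 0.55 (SE 0.223) and probe A_52_P36190 by 0.63 (SE 0.259). Probe A_52_P580912 was not, at -0.07 (SE 0.154), although it overlaps A_51_P114472, and its genotypes overlapped throughout. When the 2 arrays were left out, the 3 values were 0.54, 0.62 and -0.11. The stretches where these 2 probes overlap are shown with the 17 shared bases in capitals.
A_51_P114472, chr4:147540255-147540314, bases 31 to 60: atcctcacctgccTCGCCCACGCCTTGCAC
A_52_P580912, chr4:147540298-147540357, bases 1 to 30: TCGCCCACGCCTTGCACctgcctctctccc

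Array by array, the median of the 26 probes relative to the WT mean ran from 0.17 on array 5 to 0.89 on array 7 in Per3 4/4, with the other 6 between 0.48 and 0.67. In WT it was -0.76 on array 13, -0.57 on array 10 and -0.04 on array 12, and between 0.15 and 0.37 on the other 5. In each of the 4 scans both Per3 4/4 arrays were above both WT arrays on this measure, and the median difference within the scans was 0.24, 0.71, 0.88 and 0.43. As the group was set on the differences of these same arrays, this is a description and no independent check. The lowest WT arrays here, 13 and 10, and the lowest Per3 4/4 array, 5, were also at one end of the first principal component of all probes. It held 29.9% of the variance. That component was 0.42 on WT array 10, 0.37 on WT array 13 and 0.40 on Per3 4/4 array 5, and its other end was -0.48 on WT array 15. WT array 12, the next lowest here, was not at that end, at -0.13. The part of that component in the difference was not tested. With WT arrays 10, 13 and 15 and Per3 4/4 array 5 left out, a choice made after the values were seen, the median of the group was 0.40, 12 of the 26 probes had an unadjusted p under 0.05 and the difference of Mad2l2 was 0.43. In run 1 the median of the same 26 probes in Per3 5/5 minus WT was 0.12, and, taken against the WT mean of run 1, the array medians of the 7 Per3 5/5 arrays lay between 0.02 and 0.13.

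Lower in Per3 4/4 were Ccl21a and ENSMUST00000107980, near 42 Mb of the same chromosome, and Gm3893, which mm9 places on no chromosome. Ccl21a, a chemokine that draws T cells and dendritic cells through the receptor CCR7, lay between -5.42 and -0.19 (median -4.41) in Per3 4/4 and between 0.16 and 1.37 (median 0.51) in WT. Arrays 4, 7 and 8 were at -0.19, -0.20 and -0.42, just under the WT range, and the other 5 were at -4.34 or lower. The difference was -3.73 (SE 0.766, adjusted p = 1.00), a mean 13.2-fold lower, and -3.92 (SE 0.746, adjusted p = 0.692) without arrays 6 and 7. The annotation pairs this probe with transcripts of other Ccl21 copies too, so it cannot say which copy was read.

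ENSMUST00000107980, a transcript whose probe lies 18434 bases before that of Ccl21a, followed the same arrays. It was between -4.05 and -0.85 (median -2.79) in Per3 4/4 and between -1.66 and 0.15 (median -0.50) in WT. Arrays 7, 8 and 4 were the highest of Per3 4/4 at both probes, but array 4 was lower than arrays 7 and 8 here, at -1.97. The difference was -1.94 (SE 0.401, adjusted p = 1.00), and -2.16 (SE 0.394, adjusted p = 0.581) without arrays 6 and 7. Gm3893, whose probe lies on an unplaced contig, lay between -1.06 and 0.52 (median -0.80) in Per3 4/4 and between 0.69 and 1.37 (median 1.14) in WT. Arrays 7 and 8 were at 0.52 and 0.50 and array 4 at -0.14, and the other 5 were at -0.74 or lower. Its difference of -1.55 (SE 0.233) had the smallest p of all probes (adjusted p = 0.113), and without arrays 6 and 7 it was -1.67 (SE 0.226, adjusted p = 0.0627). Within scans the difference was -2.10, -1.71, -1.94 and -0.46. The probe passed the threshold over 30 arrays (adjusted p = 0.00316), with array weights (0.000342) and in some other fits, and its adjusted p ranged from 0.000342 to 1.00 over the alternatives. Low levels of Ccl21a also occurred in WT mice of run 1. There it lay between -5.37 and -4.50 on the 7 Per3 5/5 arrays, and in WT at -0.36, -0.20 and -2.93 on arrays 4, 5 and 6 and between -5.31 and -4.78 on the other 4. The differences of Per3 5/5 from those WT arrays were -1.63 (SE 0.84) for Ccl21a, -0.42 (SE 0.39) for ENSMUST00000107980 and -0.41 (SE 0.24) for Gm3893, and none of them passed for a difference between the effects of the 2 alleles (adjusted p = 1.00). The first 30 bases of each of the 60-base probes are given, since neighbouring copies of a gene cannot be told apart by name.
Ccl21a, chr4:42231835-42231894, plus strand: tggttcacggtccaactcacaggcaaagag
ENSMUST00000107980, chr4:42213341-42213400, plus strand: gggtacagccgacctagagagcgaatccat
Gm3893, chrUn_random:551441-551500, minus strand: cagttttcgtcctctgagaagtcagtgatg

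Pttg1 encodes securin, which holds back the separation of sister chromatids. It was at 2.99, 3.73, 2.89, 2.63 and 2.90 on Per3 4/4 arrays 1, 3, 4, 7 and 8. On arrays 2, 5 and 6 it was at -0.29, 0.58 and -0.24, and WT lay between -1.37 and -0.01 (median -0.20). Arrays 2 and 6 lay inside the WT range, array 5 just above it, and the other 5 well above it. The difference was 2.32 (SE 0.541, adjusted p = 1.00), and 2.55 (SE 0.531, adjusted p = 0.998) without arrays 6 and 7, and it passed over 30 arrays (adjusted p = 0.0493). That fit also takes its spread from run 1, where Pttg1 lay between -0.59 and 0.24, far closer together than in Per3 4/4 here. Of the 24 tested genes of the list of spindle checkpoint, securin and meiosis genes, only Pttg1 and Mad2l2 had an unadjusted p under 0.05, both higher, beside 0.467% of all probes. The median of the list was -0.02, and -0.05 with 2 such genes without arrays 6 and 7, beside 1.18%. Nudcd2, 2.68 Mb away on chromosome 11, lay between -2.66 and -1.08 (median -1.89) in Per3 4/4 and between -3.09 and -2.22 (median -2.74) in WT. Its lowest Per3 4/4 values, -2.66 and -2.60, were on arrays 2 and 6, which were also among the low arrays of Pttg1. The difference was 0.78 (SE 0.21, adjusted p = 1.00), and 0.87 (SE 0.219, adjusted p = 0.998) without arrays 6 and 7. The Pttg1 probe, whose first 30 bases of 60 follow, carries the largest difference of the chromosome 11 pair.
Pttg1, chr11:43233801-43233860, minus strand: ccgcctgtttgttacgatgcagatatttaa

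**Figure D4:**
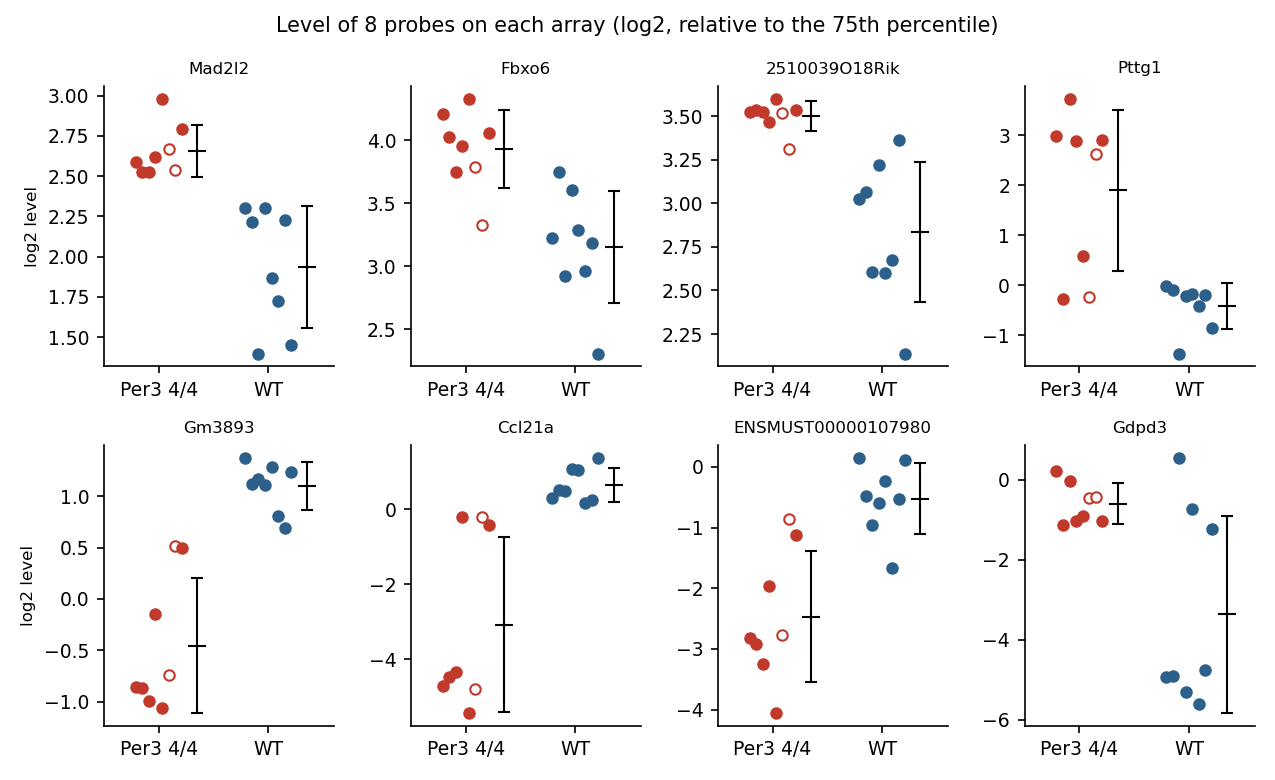
Level of 8 probes on each array (y axis, log2 intensity relative to the 75th percentile, with its own scale in each panel; x axis, genotype; 1 point per array, open points are Per3 4/4 arrays 6 and 7, and the black mark and bar are the mean and SD of 8 arrays). Mad2l2, Gm3893 and Ccl21a do not overlap between the genotypes, while Pttg1, Ccl21a and Gdpd3 each form 2 levels within one genotype.

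A pair of neighbours on chromosome 7, 81.4 kb apart, also took 2 levels, but in opposite genotypes. Gdpd3, a phospholipase of the glycerophosphodiester phosphodiesterase family, lay between -1.14 and 0.22 (median -0.70) in Per3 4/4. In WT it was at -4.75 or lower on arrays 8, 9, 11, 13 and 14, and at 0.54, -0.74 and -1.23 on arrays 10, 12 and 15. The difference was 2.76 (SE 0.807, adjusted p = 1.00), the largest positive difference over the 16 arrays, and 2.71 (SE 0.928, adjusted p = 0.998) without arrays 6 and 7. Slx1b, listed as Giyd2, is the nuclease subunit that cuts branched DNA. At probe A_51_P335104 it lay between -5.41 and 0.12 (median -0.18) in Per3 4/4 and between -0.69 and 1.17 (median 0.79) in WT, a difference of -1.81 (SE 0.752, adjusted p = 1.00), and -2.17 (SE 0.829) without arrays 6 and 7. Per3 4/4 arrays 1 and 3 were at -4.44 and -5.41. The 3 WT arrays with high Gdpd3 had the 3 lowest Slx1b values of WT, 0.28, -0.16 and -0.69. A second probe of Slx1b, A_51_P113773, gave a difference of -0.02 (SE 0.167), and -0.045 without them, so the 2 probes disagreed.

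The remaining probes that did not overlap without arrays 6 and 7 differed by less. Cyp51, an enzyme of cholesterol synthesis, was higher by 0.54 (SE 0.147) at that probe. Mt3, the metallothionein of the brain, was lower, at -0.61 (SE 0.178), and Abi3 at -0.51 (SE 0.111). 2310014H01Rik was at -0.38 (SE 0.122), Esam, an adhesion protein of endothelial cells, at -0.26 (SE 0.103), and Mrps11, a protein of the mitochondrial ribosome, at -0.22 (SE 0.113). All had an adjusted p of 0.998. Over all 16 arrays the 6 differences were 0.41, -0.43, -0.38, -0.28, -0.21 and -0.20 in the same order. Capn11, a calpain protease gene, stood well above background on 4 WT arrays and on 0 of the 6 Per3 4/4 arrays. It was therefore tested only through its WT arrays, and no p-value is read from it. Only a rough bound can be given, 1.15-fold lower in Per3 4/4 than the WT mean, which takes in WT arrays not well above background. On array 7, left out here, Capn11 was at -4.88, inside the WT range of -6.70 to -4.54. Array 7 was the highest Per3 4/4 array for Mt3 (4.80, against 2.84 to 3.88 on the other 7), for Abi3, 2310014H01Rik, Esam and Mrps11, and for Capn11. As these probes were chosen for not overlapping once arrays 6 and 7 were left out, this is partly built into the choice.

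Core clock genes showed no difference that passed. All 16 were tested, none had even an unadjusted p under 0.05 with or without arrays 6 and 7, and their median difference was 0.01 beside 0.01 over 19186 genes, and 0.02 beside 0.01 without the 2 arrays. The range over all arrays was from -0.21 in Npas2, a partner of BMAL1, to 0.24 in Rora, a nuclear receptor that activates Arntl. Per3 itself was dim, between -3.88 and -3.02 (median -3.44) in Per3 4/4 and between -4.55 and -3.09 (median -3.77) in WT, and the groups overlapped throughout. Its difference was 0.23 (SE 0.190, adjusted p = 1.00), and 0.25 (SE 0.205) without arrays 6 and 7. The Per3 probe is not known to read exon 18, so it is no check of the genotype labels. Nr1d1, which encodes the repressor REV-ERB alpha, moved most when arrays 6 and 7 were left out, from -0.15 to -0.47. Of 15 further clock and output genes none had an unadjusted p under 0.05 either (median -0.09, and -0.12 without the 2 arrays).

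Among 26 genes induced by light and neuronal activity, such as Fos, Egr1 and Nr4a1, none had an unadjusted p under 0.05. Their median difference was -0.22, with 2 of 26 above 0, and it was -0.22 without arrays 6 and 7. WT array 10 was 1.73 above the mean of the 16 arrays on this list, and the other 15 lay between -0.38 and 0.36. Without WT array 10 the median was -0.07. The sleep genes named by the study, 21 in all, had a median of 0.06 and none with an unadjusted p under 0.05. Leaving out the 2 arrays gave a median of 0.08. Most of these genes were named from hypothalamus or cortex after sleep deprivation, which is another protocol. Homer1, Ptgs2, Tnfrsf25, Kcne2 and Prl were named under this light protocol, Kcne2 and Prl for Per3 4/4 too. Their values here are therefore no independent evidence. Homer1, a scaffold protein of synapses, gave differences between -0.33 and -0.08 at 4 probes, and between -0.31 and 0.035 without arrays 6 and 7, and WT array 10 was the highest array at each of them. Ptgs2, the inducible cyclooxygenase, differed by 0.25 (SE 0.554), and 0.48 without them, with 5 Per3 4/4 and 3 WT arrays well above background. Prl differed by -0.83 (SE 1.836), and -1.97 (SE 1.947) without them, over levels from -6.31 to 8.14. Tnfrsf25, a death receptor, differed by -0.08 (SE 0.399), and by 0.10 (SE 0.434) without them. Nfkb1, a subunit of the transcription factor NF-kappaB, was the one of these 21 genes with an unadjusted p under 0.05 without arrays 6 and 7, beside 1.18% of all probes that were higher, at 0.45 (SE 0.176, adjusted p = 0.998).

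A second list, the genes the study names for this light protocol, was chosen on these samples and is no independent evidence of its direction. Of its 6 tested genes, Ccl21a and Slx1b were lower at an unadjusted p under 0.05, beside 0.275% of all probes. Once arrays 6 and 7 were left out, Tmem72 and Sln were also higher at that p, beside 1.18%. Sln, which encodes sarcolipin, an inhibitor of the calcium pump, lay between -3.76 and 1.12 (median -2.07) in Per3 4/4 and between -4.58 and -1.62 (median -2.58) in WT. Its difference was 1.13 (SE 0.680, adjusted p = 1.00), and 1.56 (SE 0.713, adjusted p = 0.998) without the 2 arrays. The 2 probes of Rpp40, a subunit of ribonuclease P, disagreed, at -0.05 (SE 0.152) and 1.13 (SE 0.672), and at 0.02 and 0.88 without the 2 arrays. Apoc4, an apolipoprotein, was too dim to be tested.

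Of 40 neuropeptide and transmitter genes tested, 1 was higher at an unadjusted p under 0.05, beside 0.467% of all probes. This was Nts, the precursor of neurotensin, which lay between 1.78 and 2.91 (median 2.40) in Per3 4/4 and between 1.24 and 2.40 (median 2.07) in WT. Its difference was 0.39 (SE 0.184, adjusted p = 1.00), and 0.47 (SE 0.191) without arrays 6 and 7. Vip, a peptide of the suprachiasmatic nucleus that couples its neurons, lay between -2.96 and -0.12 (median -1.08) in Per3 4/4 and between -1.12 and 0.28 (median -0.77) in WT. It differed by -0.65 (SE 0.356), and by -0.90 (SE 0.373, adjusted p = 0.998) without arrays 6 and 7. Without them it was the one gene of the list that was lower at an unadjusted p under 0.05, beside 0.826% of all probes. Agrp, a hunger peptide, and Hcrt differed by 0.94 (SE 0.85) and 0.92 (SE 0.84), and by 0.73 and 0.89 without arrays 6 and 7, but WT array 10 set most of this. Without WT array 10, where Agrp was at -5.21 and Hcrt at -0.78, the differences were 0.36 and 0.019. The median of the list was 0.11, and 0.14 without arrays 6 and 7. Of 35 receptors of such peptides, 1 was higher at an unadjusted p under 0.05, beside 0.467% of all probes. This was Crhr2, a receptor of urocortins, at 0.43 (SE 0.202, adjusted p = 1.00), and 0.52 without arrays 6 and 7. Lepr, the leptin receptor, joined it at that p without them, at 0.48 (SE 0.220), beside 1.18% of all probes. The 26 genes of hypothalamic regional identity had a median of 0.32, 0.31 without arrays 6 and 7, and 0.05 without WT array 10.

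Choroid plexus genes, which mark the tissue that makes cerebrospinal fluid, varied widely between mice. Their mean level was high on Per3 4/4 arrays 1, 2, 3 and 4, at 1.58, 1.91, 0.67 and 1.90, and between -0.89 and -0.64 on arrays 5 to 8. In WT it was 1.87 on array 9 and 0.60 on array 14, and between -1.40 and -0.46 on the other 6. Of 21 genes tested, 20 had a positive difference, with a median of 0.70, and only Clic6, a chloride channel protein, had an unadjusted p under 0.05 (beside 0.467% of all probes higher), at 0.69 (SE 0.259, adjusted p = 1.00). Leaving out arrays 6 and 7, both of which were low, took the median to 1.13 and the number to 4, namely Clic6, Kl, Tmem72 and Cox8b, beside 1.18% of all probes. Ttr, the thyroid hormone carrier of this tissue, lay between -4.15 and 3.14 (median -1.40) in Per3 4/4 and between -7.13 and 2.64 (median -3.52) in WT. Its difference was 2.06 (SE 1.490), and 3.10 (SE 1.561, adjusted p = 0.998) without the 2 arrays. Kcne2, a potassium channel subunit, followed it with 1.64 (SE 1.252) and 2.55 (SE 1.299). In bulk tissue, fewer cells of a type and less RNA per cell cannot be told apart, here and in what follows. How much choroid plexus each block held was not tested. Within scans the difference of Ttr was 3.09, 6.99, -1.12 and -0.72.

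Microglia genes were mostly lower in Per3 4/4, with and without the 2 arrays. Of 14 tested, 13 had a negative difference over all arrays (median -0.22), none with an unadjusted p under 0.05. Without arrays 6 and 7 the median was -0.30, and 6 were lower at an unadjusted p under 0.05, beside 0.826% of all probes, though none after adjustment. These were C1qb and C1qc, chains of the first complement component, the fractalkine receptor Cx3cr1, the lysosomal protein Cd68, Tmem119 and Fcrls. Cd68 differed most, at -0.50 (SE 0.180), and C1qc was at -0.42 (SE 0.130, adjusted p = 0.998). C1qc lay between 1.68 and 2.66 (median 1.85) in Per3 4/4 and between 1.91 and 2.57 (median 2.31) in WT, and its highest Per3 4/4 value was on array 7. The mean level of the list was lowest on Per3 4/4 arrays 1 and 2, at -0.34 and -0.38, and between -0.13 and 0.16 on the other 6, against -0.10 to 0.30 in WT. Aif1, P2ry12 and Trem2, markers of the same cells, differed by -0.09, -0.13 and -0.16.

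**Figure D5:**
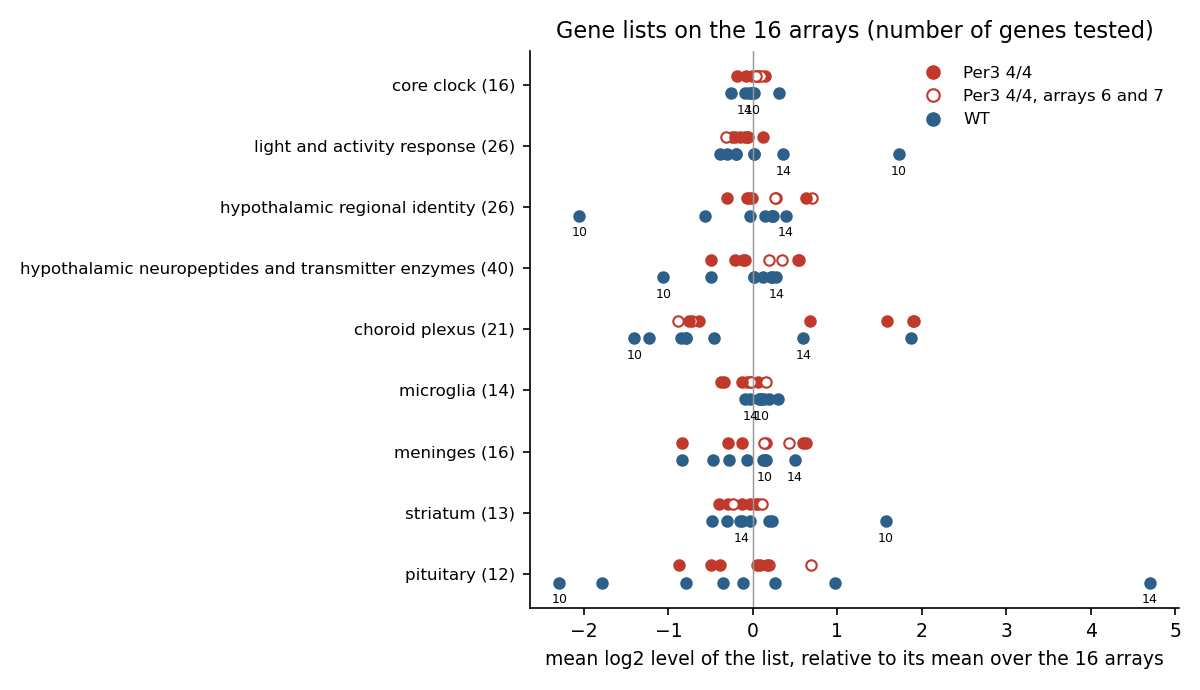
Mean level of 9 gene lists on each array (x axis, mean log2 level relative to the mean of the 16 arrays; y axis, list with its number of tested genes; 1 point per array, red for Per3 4/4, open for its arrays 6 and 7, blue for WT, with WT arrays 10 and 14 numbered). Core clock genes lie within -0.26 to 0.31 on all arrays, choroid plexus genes spread from -1.40 to 1.91, and WT array 10 is the lowest for hypothalamic identity and the highest for light response and striatum.

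The other tissue and cell lists held no gene that passed after adjustment. The median was 0.41 for thalamus (9 of 11 genes positive) and -0.26 for striatum (2 of 13 positive). With WT array 10 or WT array 14 left out, the only arrays left out for lists, these medians ranged from -0.001 to 0.42 and from -0.28 to -0.004. Relative to the mean of the 16 arrays, WT array 10 was at -2.39 for thalamus and 1.57 for striatum. Blood genes had a median of -0.25, and -0.0055 without arrays 6 and 7. For ependyma and tanycytes it was 0.20, and 0.13 without them. Of 15 endothelial and pericyte genes, Esam was lower at an unadjusted p under 0.05, beside 0.275% of all probes. Of 16 meningeal genes, 2 were higher at that p, beside 0.467% of all probes. These were Lum, a proteoglycan of connective tissue, and Slc13a4, a sulphate carrier. They were higher by 0.56 (SE 0.259) and 0.70 (SE 0.274), with an adjusted p of 1.00 each, and by 0.76 and 0.77 without arrays 6 and 7. Slc13a4 rested on 7 Per3 4/4 arrays, as its spot on array 1 was an outlier spot. Astrocyte and oligodendrocyte genes had medians of 0.04 and 0.02, with none of 12 and none of 16 at an unadjusted p under 0.05, and 0.05 and 0.09 without arrays 6 and 7. Of 11 genes that differ between C57BL/6 substrains none reached it, and their median was -0.01.

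The effect of the 4-repeat allele was compared with that of the 5-repeat allele, each against the WT arrays of its own run. No probe passed for the difference between the 2 effects (0 of 30263, 0%), while 924 (3.05%) had an unadjusted p under 0.05, and 1532 (5.06%) without Per3 4/4 arrays 6 and 7. For Mad2l2 the effects differed by 0.73, for Pttg1 by 2.04, for Gdpd3 by 3.18 and for 2510039O18Rik by 0.86 (adjusted p = 0.964), with an adjusted p of 1.00 for the first 3. Sycp3, a protein of the meiotic chromosome axis, was too dim to be tested. Its levels were -6.49 to -4.71 in Per3 4/4, with 3 arrays well above background, and -8.11 to -6.54 in WT, with 0.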

How the data were processed

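Cy3-labelled cRNA from dissected hypothalamus was hybridized to 1-colour Agilent 4×44K mouse arrays. The authors deposited the scanner software's intensity of each spot, background-subtracted, and a log2 table. That log2 table, which the authors made by a shift to the 75th percentile, followed the scanner values (r = 0.9997 across values in this run) once each probe was set to its median in the run, and served as an alternative. Here, control spots and outlier spots were dropped from the intensities, log2 was taken, the 75th percentile of each array was subtracted, and spots of a probe were averaged. A probe was tested if well above background, by the scanner's mark, on at least 4 of the 8 arrays of 1 genotype. Genotypes were compared with limma 3.58.1 (lmFit, eBayes) in R 4.3.3, with Benjamini-Hochberg adjustment over 28701 probes at 0.05. All p-values are two-sided limma values unless named otherwise. The number of arrays limits the precision. Summaries used Python 3.11.15.

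The arrays, members and gene lists were chosen with earlier results of these data known, so no list was tested as a set. Of 482 genes on 27 lists, 474 had a probe, and each was read from its brightest probe. The named genes were the probes whose genotypes did not overlap (up to 12 in each direction), genes the study or earlier results name, list members with an unadjusted p under 0.05 or the largest differences, Y-linked genes and Xist, and the probes on which arrays 6 and 7 lay farthest outside the rest. Neighbours on a chromosome, Nr1d1 and the microglia markers that did not reach that p were picked with their values in view. A result for 1 gene of the chromosome 4 group is not reported here. Probe positions and sequences are those of the array annotation (mm9), and no genome was used. The headers give a slide number and a scan. Scans 3 and 4 carry the same slide number, so the 4 scans, not slides, served as batches. The rank product of the methods resamples over genes and was not run. The alternatives were all 30 arrays in 1 fit, the scan as a fixed or random block, normexp (offset 50), the percentile over detected probes, quantile normalization, the authors' table, no filter or a strict one, outlier spots kept, array weights, trended variances, the methods' t-test, and each array left out. Leaving out the 4 arrays of lowest weight, or WT array 10 or 14 for lists, was added after the data were seen.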

Additional observations from a re-analysis of the deposited data

Results flagged for a closer look

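Of 202 groups of 8 arrays examined (gene lists and named probes in each genotype), 23 held 1 array whose gap to the nearest other array, as a share of the whole range of the group, was above Dixon's critical value. Such a gap arises by chance in about 1 group in 20. WT array 10 accounted for 8 of the 23. On it the mean log2 level, relative to the mean of the 16 arrays, was 1.73 for light and activity response genes, -2.05 for hypothalamic regional identity, -0.68 for receptors of hypothalamic peptides and 1.57 for striatal genes. Its levels of Homer1 were -0.23 at A_52_P37991, -1.49 at A_51_P387160 and 1.08 at A_52_P151211, and its level of Ptgs2 was -3.07. WT array 14 was highest for pituitary genes, at 4.70, and for interferon response genes, at 0.85. The highest array of its genotype was Per3 4/4 array 1 for cortex and hippocampus genes (0.97), Per3 4/4 array 5 for heat shock genes (0.40) and WT array 8 for endothelial genes (0.41) and for Esam (-0.80).

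Per3 4/4 array 7 was the lowest of its genotype for 2510039O18Rik, at 3.31, and the highest for Capn11 (-4.88), Mrps11 (1.26) and Tmem119 (1.46). WT array 15 was the highest WT array for Mt3, at 4.83, and the lowest for Nfkb1 (-4.46) and Cxcl10 (-7.06). WT array 13 was lowest at the Slx1b probe A_51_P113773, at -2.08, and Per3 4/4 array 5 at the Fbxo6 probe A_52_P557923, at 0.16.

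Xist was outside the comparison because its probes were not tested, yet each of its 4 probes was higher on Per3 4/4 arrays 6 and 7 than on any other array. On array 6 and array 7 in turn, the level was 1.78 and 1.51 at A_51_P145453, 0.28 and -0.01 at A_52_P362360, -1.09 and -1.23 at A_52_P113537, and -3.12 and -2.19 at A_52_P300376.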

How the results depend on the processing

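The count of probes past an adjusted p of 0.05, 0 over all 16 arrays, was 3 with all 30 arrays in 1 limma fit (Mad2l2, Pttg1, Gm3893), 4 with array weights (Ccl21a, ENSMUST00000107980, Gm3893, Capn11) and 1, Gm3893, with the scan as a random block, normexp or trended variances. It was 0 to 2 with 1 array left out, the 2 (Gm3893 and Capn11, which was tested only through its WT arrays) without Per3 4/4 array 7 and 1 without Per3 4/4 array 8. Without arrays 6 and 7 these counts were 6, 4 and 1, and 1 with dim probes left out unless detected on each array, and 0 to 1 with a further array left out, the 1 without Per3 4/4 array 8. The SD of the differences under normexp was 0.12, and 0.16 without the 2 arrays. With 1 array left out, 3 to 8 probes did not overlap between the genotypes (8 without Per3 4/4 array 7, and 5 without WT array 9, 14 or 15). Without arrays 6 and 7 it was 14 to 41, with 21, 24 and 33 without Per3 4/4 array 1, 3 or 8 and 19, 22, 26 and 41 without WT array 8, 9, 10 or 13. No paired analysis was possible because the replicate numbers of Per3 4/4 and of the WT arrays of this run have 1 number in common, 8. In the fit of the difference between the 2 knock-in effects, a replicate block gave 47 probes. The labels do not say that equal replicate numbers mark related arrays, so nothing is read from this count. Of 72 named probes, 60 kept their sign in every setting and 12 did not. Homer1 A_52_P37991 turned to 0.13 with array weights and 0.015 without the 4 arrays of lowest weight, a setting chosen after seeing the data, and ranged from -0.47 to 0.11 with 1 array left out (0.11 without WT array 10). Homer1 A_52_P151211 was 0.16 and 0.23 in those settings, 0.035 without arrays 6 and 7, and -0.19 to 0.18 with 1 array left out. Ptgs2 was -0.028 under normexp and -0.0081 to 0.67 with 1 array left out. Tnfrsf25 was 0.16 with array weights, 0.10 without arrays 6 and 7, and -0.31 to 0.14 with 1 array left out. Prl ranged from -1.73 to 0.33, the latter without WT array 14, Slx1b A_51_P113773 from -0.15 to 0.054 (0.0031 under normexp), and Rpp40 A_52_P366047 from -0.10 to 0.034 (0.021 without arrays 6 and 7). Without arrays 6 and 7, Y-linked differences were 0.55 for Uty, 0.075 for Ddx3y, 0.36 for Eif2s3y, 0.063 for Kdm5d and 0.035 for Ube1y1, and Uty ranged from -0.51 to 0.11 with 1 array left out. The cause of these changes was not tested, other than that removing arrays 6 and 7 removes the arrays without Y-linked signal. Probes not well above background limit what can be said of low levels.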
